A study of Mus musculus with 7 samples.

Results

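The 10 genes described here are the mouse MHC class II genes that present peptides, their loading factors and their transcriptional master regulator, taken from the table of 14594 named genes by symbol: Cd74, H2-Aa, H2-Ab1, H2-Eb1, H2-DMa, H2-DMb1, H2-DMb2, H2-Oa, H2-Ob and Ciita. All 10 were in the table, and 9 passed the filter on low counts, H2-DMb2 being the exception. RNA came from cortical microglia of C57BL/6 mice aged about 12 weeks, pulled down on CD11b beads and sorted on colour. Hoxb8 microglia carried both tdTomato and GFP (n = 3 libraries), and non-Hoxb8 microglia carried GFP alone (n = 4 libraries). Every animal was Cx3Cr1GFP/+, Hoxb8IRES-Cre/+ and ROSA26CAG-LSL-tdTomato/+, so in both groups 1 copy of the Cx3Cr1 locus carries the GFP allele. Cre is driven from the Hoxb8 locus, and its recombination leaves tdTomato on in every descendant of a cell that once expressed Hoxb8. The colour therefore records descent and not present Hoxb8 expression. The labels name 4 animals for the 7 libraries and do not say which libraries share one. P-values thus measure the spread between libraries that, by these labels, are not all independent. The question was whether microglia of the 2 origins differ in these transcripts.

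MHC class II molecules are pairs of an alpha and a beta chain that carry peptides from the endosome to the cell surface, where CD4 T cells read them. The invariant chain Cd74 holds the groove shut during transport, H2-DM removes its last fragment and helps peptides in, and H2-O restrains H2-DM. Transcription of the whole set depends on Ciita, a coactivator that docks on RFX and NF-Y proteins bound to X and Y boxes shortly before each start site. Resting microglia are known for low levels of class II, whereas border macrophages, dendritic cells and B cells carry more.

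Library totals ran from 5915261 to 7741934 counts, and 13058 to 13750 genes were detected per library. All 10 microglial markers looked at, among them P2ry12, Tmem119 and Sall1, were present in every library. P2ry12, a purinergic receptor of microglia, ranged from 8649 to 10639 CPM (counts scaled to a common library size with TMM factors) in Hoxb8 libraries and from 7243 to 10980 CPM in non-Hoxb8 libraries. Replicate 2 of each group stood apart in inflammatory RNA, with the cytokine gene Il1b at 943 CPM in the Hoxb8 and 408 CPM in the non-Hoxb8 library and no more than 26.6 CPM elsewhere. Replicate 3 of each group and non-Hoxb8 replicate 4 held both Xist and Y-linked RNA. Whether these libraries hold RNA of more than 1 animal was not tested, so a library may not stand for 1 animal. Replicate 2 had Xist at 15.1 CPM in the Hoxb8 and 23.2 CPM in the non-Hoxb8 library, against at least 8291 CPM elsewhere. Its Y-linked sum was the highest of each group, at 269 and 293 CPM, against 0 and 0.412 CPM in replicate 1. Replicate 2 thus differed in both inflammatory and sex-linked RNA, and these cannot be told apart. In bulk RNA, more cells with a transcript and more transcript per cell cannot be told apart.

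Stretches of promoter that hold the Y box, 68 bases each, are shown for the 2 class II chain genes with a RefSeq promoter entry and for H2-Ob, a member of the set that gave no call. They are RefSeq sequences on GRCm38.p6, written 5′ to 3′ on the strand of the gene, with X and Y box matches in capitals. The window lies at chr17:34287859-34287926 on the minus strand for H2-Aa, at chr17:34305753-34305820 on the plus strand for H2-Eb1 and at chr17:34238793-34238860 on the plus strand for H2-Ob.
H2-Aa: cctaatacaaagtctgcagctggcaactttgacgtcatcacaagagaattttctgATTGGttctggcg
H2-Eb1: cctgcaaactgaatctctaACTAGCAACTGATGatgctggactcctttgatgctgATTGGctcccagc
H2-Ob: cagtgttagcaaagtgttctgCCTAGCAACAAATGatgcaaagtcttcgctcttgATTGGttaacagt
The X box was searched as a pattern of 14 letters, 8 of them fixed, and the Y box by its core ATTGG, on both strands, in the 250 bases before each start. The X and Y matches do not share bases in these windows. Of 32851 promoters, 0.609% held the X pattern exactly and 33.8% held the Y core. H2-Ob and H2-DMb1 had an exact X match on the same strand as a Y core 10 to 30 bases further on, an arrangement in 0.0365% of all promoters. With at most 1 mismatch, which 14.8% of promoters allow for the X box alone, the arrangement was in 0.298% of promoters, and H2-Eb1 and H2-DMb2 had it as well. The gap between the boxes was 22 bases in H2-Eb1, 20 in H2-Ob and 23 in H2-DMb1 and in H2-DMb2. H2-Aa and H2-Oa had the Y core only, at 48 and 43 bases before the start, and H2-DMa had no such arrangement in either of its 2 entries. In all, 7 members had an entry, and H2-Ab1, Ciita and Cd74 had none. A fixed pattern can miss an X box, so a gene without a match is not shown to lack one. Whether these matches go with the RNA levels of the 2 groups was not tested.

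The 2 chains of H2-A, the only classical class II molecule that C57BL/6 mice place on the cell surface, were both high in Hoxb8 libraries and low in non-Hoxb8 libraries. H2-Ab1, the beta chain, stood at 65.1, 397 and 100.4 CPM in Hoxb8 replicates 1, 2 and 3, against 9.75, 15.2, 4.81 and 17.5 CPM in non-Hoxb8 replicates 1 to 4. The lowest Hoxb8 library lay above the highest non-Hoxb8 library, and Hoxb8 replicate 2 lay far above the other Hoxb8 libraries. The means were 187 ± 182 CPM (SD, n = 3) in Hoxb8 and 11.8 ± 5.69 CPM (SD, n = 4) in non-Hoxb8 libraries, a fitted log2 fold change of 3.99 ± 0.81 (SE). H2-Aa, the alpha chain, stood at 70.7, 489 and 96.1 CPM in Hoxb8 replicates 1, 2 and 3, against 0.549, 15.0, 0.641 and 23.4 CPM in non-Hoxb8 replicates 1 to 4. Again the groups did not overlap, and the non-Hoxb8 libraries split into 2 near zero, with 4 counts each, and 2 at a level between those and the Hoxb8 libraries. The log2 fold change of H2-Aa was 4.47 ± 1.52 (SE).

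H2-Eb1, the beta chain of H2-E, stood at 13.5, 249 and 43.4 CPM in Hoxb8 replicates 1, 2 and 3, against 0.412, 5.99, 2.08 and 3.61 CPM in non-Hoxb8 replicates 1 to 4. C57BL/6 mice make no H2-E alpha chain, so that this RNA has no surface molecule of its own in this strain. The groups did not overlap, and the log2 fold change was 5.06 ± 1.32 (SE). Cd74, the invariant chain, stood at 164, 1275 and 166 CPM in Hoxb8 replicates 1, 2 and 3, against 13.6, 61.6, 33.8 and 56.8 CPM in non-Hoxb8 replicates 1 to 4. Its groups did not overlap either, at a log2 fold change of 3.69 ± 1.04 (SE). Mir5107, a microRNA gene that lies within Cd74 and shares 12 of its bases with Cd74 exons, followed it at 11.8, 134 and 13.1 CPM in Hoxb8 replicates 1, 2 and 3, against 0.137, 5.35, 3.37 and 8.07 CPM in non-Hoxb8 replicates 1 to 4. The 2 genes lie on the same strand, so reads over the shared bases cannot be assigned to 1 of them.

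**Figure D1:**
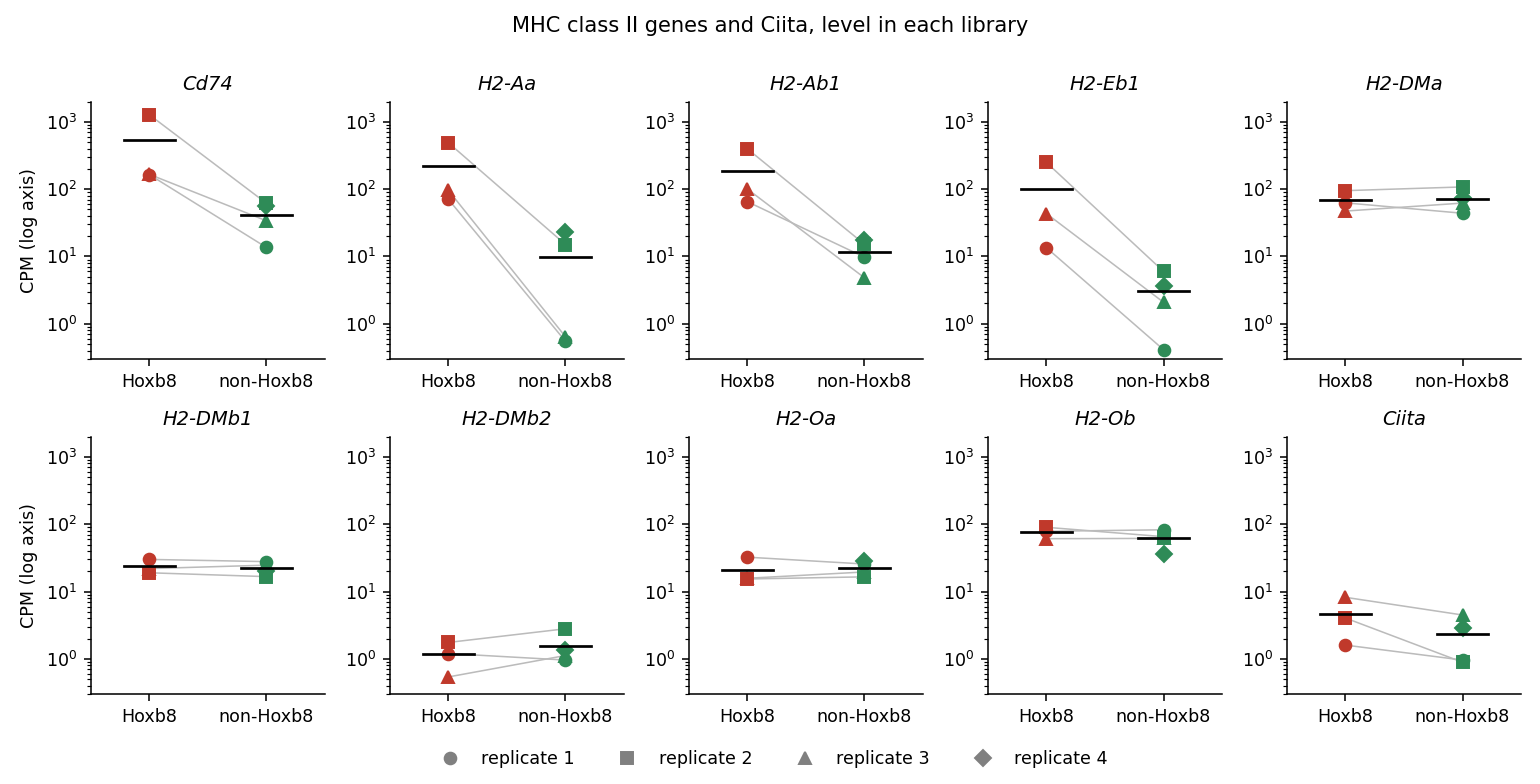
CPM of each of the 10 genes (log axis) in 3 Hoxb8 libraries (red, left) and 4 non-Hoxb8 libraries (green, right). Symbols give the replicate, black bars the group mean, and grey lines join libraries of adjacent number. Cd74, H2-Aa, H2-Ab1 and H2-Eb1 do not overlap between groups, and the other 6 genes do.

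None of the 9 tested members passed edgeR's quasi-likelihood test without pairs (Benjamini-Hochberg adjustment over 11874 genes, threshold 0.05), where 0.0337% of all tested genes were called higher and 0% lower. Before adjustment, 4 members (H2-Ab1, H2-Eb1, Cd74 and H2-Aa) were under 0.05 in the higher direction and 0 in the lower, beside 1.95% of all tested genes higher and 1.57% lower, each member with an edgeR adjusted p of 1.00. Those 4 were also the members whose groups did not overlap, which held for 2.48% of tested genes in the higher and 2.08% in the lower direction. DESeq2 called 2 members, H2-Eb1 at an adjusted p of 0.017 and H2-Ab1 at one of 0.00079, beside 0.159% of its genes called higher and 0.0379% lower, and it gave Cd74 no adjusted p. Limma-voom called 0 members and 0% of all genes. Without Hoxb8 replicate 2, edgeR's log2 fold changes were 2.81 for H2-Ab1, 3.08 for H2-Aa, 3.22 for H2-Eb1 and 1.99 for Cd74, and H2-Ab1 alone of the members was called (edgeR adjusted p = 0.0455), where 0.0163% of genes were called higher and 0% lower. Without replicate 2 of both groups they were 2.95 for H2-Ab1, 3.37 for H2-Aa, 3.81 for H2-Eb1 and 2.25 for Cd74, and without the 3 libraries of mixed Xist and Y-linked RNA they were 4.21, 5.16, 5.34 and 4.26 for the same genes, with 0 called by edgeR in both. Over the 9 tested members the median log2 fold change was 1.00, and over all tested genes it was -0.00.

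Libraries with adjacent numbers, which are replicates 1, 2 and 3 of each group, were also fitted as pairs. In that fit edgeR called the same 4 members higher and 0 lower, where 0.362% of all tested genes were called higher and 0% lower. With pairs, DESeq2 (0.332% of its genes higher and 0.00692% lower) and limma-voom (0.396% higher and 0.00842% lower) called these 4 members too. In edgeR with pairs, H2-Aa was at 5.84 ± 0.33 (log2 fold change ± SE, adjusted p = 2.5e-12), H2-Eb1 at 4.97 ± 0.38 (6.0e-10), H2-Ab1 at 3.95 ± 0.31 (2.7e-09) and Cd74 at 3.44 ± 0.28 (3.0e-07). Non-Hoxb8 replicate 4 has no partner and adds nothing to these fold changes. In every pair the Hoxb8 library was the higher one for these 4, as it was for 12.6% of tested genes, with 12.1% lower in every pair. Within pairs 1, 2 and 3, the log2 ratio of Hoxb8 over non-Hoxb8 CPM (with 0.5 added to each) was 2.68, 4.67 and 4.25 for H2-Ab1. For H2-Aa it was 6.08, 4.98 and 6.40. For Cd74 it was 3.55, 4.36 and 2.28. The pair with the highest levels, replicate 2, thus gave the largest ratio for H2-Ab1 and Cd74 and the smallest for H2-Aa. Without that pair all 4 calls were kept, where 0.26% of genes were called higher and 0.0586% lower, at log2 fold changes of 3.50 for H2-Ab1, 7.06 for H2-Aa, 4.59 for H2-Eb1 and 2.91 for Cd74. The pairing rests on library numbers and not on a statement in the labels. It was accepted after a check on the same expression values that are tested here, so these adjusted p-values also depend on that check. The fit has 2 residual degrees of freedom, so its errors lean on the spread estimated over all genes.

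**Figure D2:**
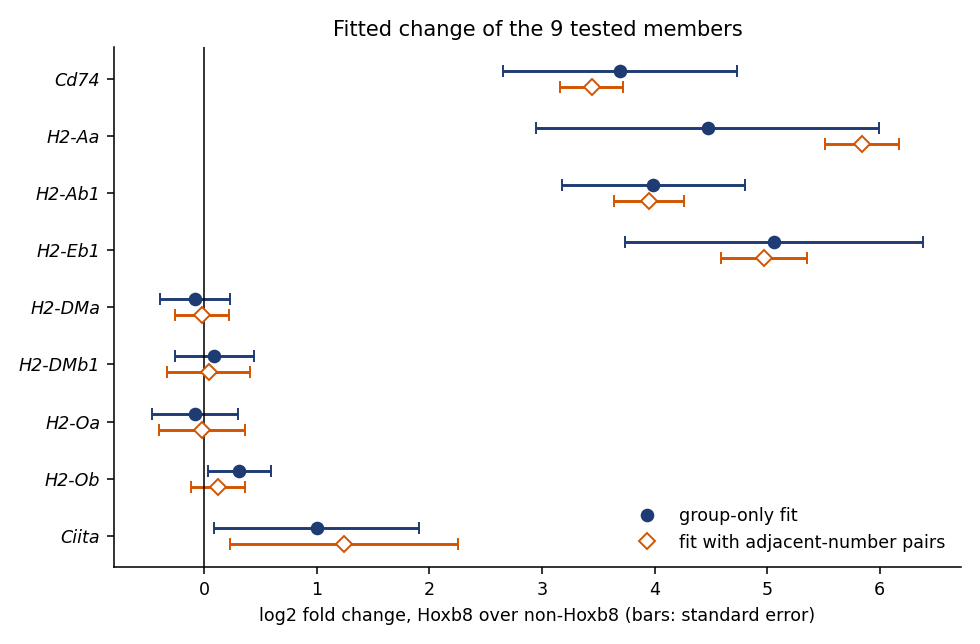
Log2 fold change of Hoxb8 over non-Hoxb8 (x axis; bars are standard errors) for the 9 tested genes, in the fit without pairs (filled circles) and with adjacent library numbers as pairs (open diamonds). Cd74, H2-Aa, H2-Ab1 and H2-Eb1 lie between 3.44 and 5.84 in both fits, with narrower errors in the fit with pairs, and the H2-DM and H2-O genes lie near 0.

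No call was made for the editors of the peptide cargo, in any of these fits. H2-DMa, the alpha chain of H2-DM, stood at 62.5, 94.9 and 47.2 CPM in Hoxb8 replicates 1, 2 and 3, against 43.8, 107.7, 62.1 and 74.5 CPM in non-Hoxb8 replicates 1 to 4. The groups overlapped through most of their range, and in both of them replicate 2 was the highest library. Its log2 fold change was -0.08 ± 0.31 (SE). H2-DMb1, the main beta chain of H2-DM, stood at 30.1, 19.0 and 21.97 CPM in Hoxb8 replicates 1, 2 and 3, against 27.9, 16.7, 24.7 and 19.9 CPM in non-Hoxb8 replicates 1 to 4 (log2 fold change 0.09 ± 0.35, SE). Here replicate 2 was the lowest library of each group. H2-DMb2, a second beta chain gene, had 26 counts over the Hoxb8 libraries and 44 over the non-Hoxb8 libraries, and its log2 fold change of -0.42 ± 1.28 (SE) comes from the fit without the filter.

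H2-Ob, the beta chain of H2-O, stood at 78.7, 90.2 and 61.1 CPM in Hoxb8 replicates 1, 2 and 3, against 82.8, 65.5, 61.7 and 36.4 CPM in non-Hoxb8 replicates 1 to 4. The highest library was Hoxb8 replicate 2 and the lowest non-Hoxb8 replicate 4, with the other libraries of both groups intermixed, and the log2 fold change was 0.31 ± 0.28 (SE). H2-Oa, the alpha chain, stood at 32.5, 15.4 and 15.8 CPM in Hoxb8 replicates 1, 2 and 3, against 25.7, 16.6, 19.6 and 28.0 CPM in non-Hoxb8 replicates 1 to 4 (log2 fold change -0.08 ± 0.38, SE). H2-O is best known from B cells. Of the B cell list, 4 of 10 markers had a row (Cd79b, Ebf1, Cr2 and Fcer2a), with a sum of 31.5 to 56.2 CPM in Hoxb8 and 20.8 to 60.4 CPM in non-Hoxb8 libraries. Cd79a and Ms4a1 were not analysed here.

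By the group median of CPM per kilobase of exon, Ciita was the lowest of the tested members in both groups, with 12, 30 and 61 counts in Hoxb8 replicates 1, 2 and 3. In CPM it stood at 1.60, 4.05 and 8.22 in these libraries, against 0.961, 0.892, 4.49 and 2.92 CPM in non-Hoxb8 replicates 1 to 4. The groups overlapped, although the Hoxb8 library was the higher in all 3 pairs. The log2 fold change was 1.00 ± 0.91 (SE, edgeR adjusted p = 1.00) without pairs and 1.24 ± 1.01 (SE, edgeR adjusted p = 1.00) with them. The order of Ciita over libraries differed from that of the chain genes, since the highest Ciita level was in Hoxb8 replicate 3 and the highest H2-Ab1 level in Hoxb8 replicate 2. Ciita overlaps Dexi on the opposite strand, and reads without strand cannot separate them there.

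A call for some members and not for others does not by itself show that they differ, so levels relative to H2-Ab1 were compared within libraries. The log2 ratio of H2-DMa to H2-Ab1 CPM was -0.06, -2.06 and -1.09 in Hoxb8 replicates 1, 2 and 3, against 2.17, 2.83, 3.69 and 2.09 in non-Hoxb8 replicates 1 to 4. The mean of this ratio was -1.07 ± 1.00 (SD, n = 3) in Hoxb8 and 2.69 ± 0.74 (SD, n = 4) in non-Hoxb8 libraries, with no overlap. The difference, Hoxb8 minus non-Hoxb8, was -3.76 for H2-DMa, -3.61 for H2-DMb1, -3.84 for H2-Oa and -3.34 for H2-Ob. All 4 ratios had p = 0.0571 by exact permutation of the 35 possible splits, two-sided, and the same after Benjamini-Hochberg adjustment over the 4. That is the smallest p that this test, which doubles the smaller tail, can give for 3 libraries against 4. The limit rests on that rule. All 4 ratios share H2-Ab1, whose groups did not overlap, so they largely restate its difference and are not 4 separate results. The permutation also treats the libraries as independent, although the labels name 4 animals for the 7 libraries, so that some share one.

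Within the chain genes, the ratio of H2-Aa to H2-Ab1 varied among the non-Hoxb8 libraries. Per kilobase of merged exon in GENCODE M21, the ratio of H2-Aa to H2-Ab1 was 0.734, 0.833 and 0.647 in Hoxb8 replicates 1, 2 and 3, against 0.0381, 0.670, 0.0902 and 0.902 in non-Hoxb8 replicates 1 to 4. The ratio was alike in the Hoxb8 libraries and in non-Hoxb8 replicates 2 and 4, and far lower in non-Hoxb8 replicates 1 and 3. In those 2 libraries H2-Ab1 still had 71 and 30 counts beside the 4 counts each of H2-Aa. Cd74 exceeded H2-Ab1 per kilobase in all 7 libraries, 2.53 to 4.91 times in Hoxb8 and 2.13 to 10.8 times in non-Hoxb8 libraries. Per kilobase, H2-DMa lay below H2-Ab1 in all 3 Hoxb8 libraries, at 0.178 to 0.716 of its level, and above it in all 4 non-Hoxb8 libraries, at 3.17 to 9.61 times its level.

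**Figure D3:**
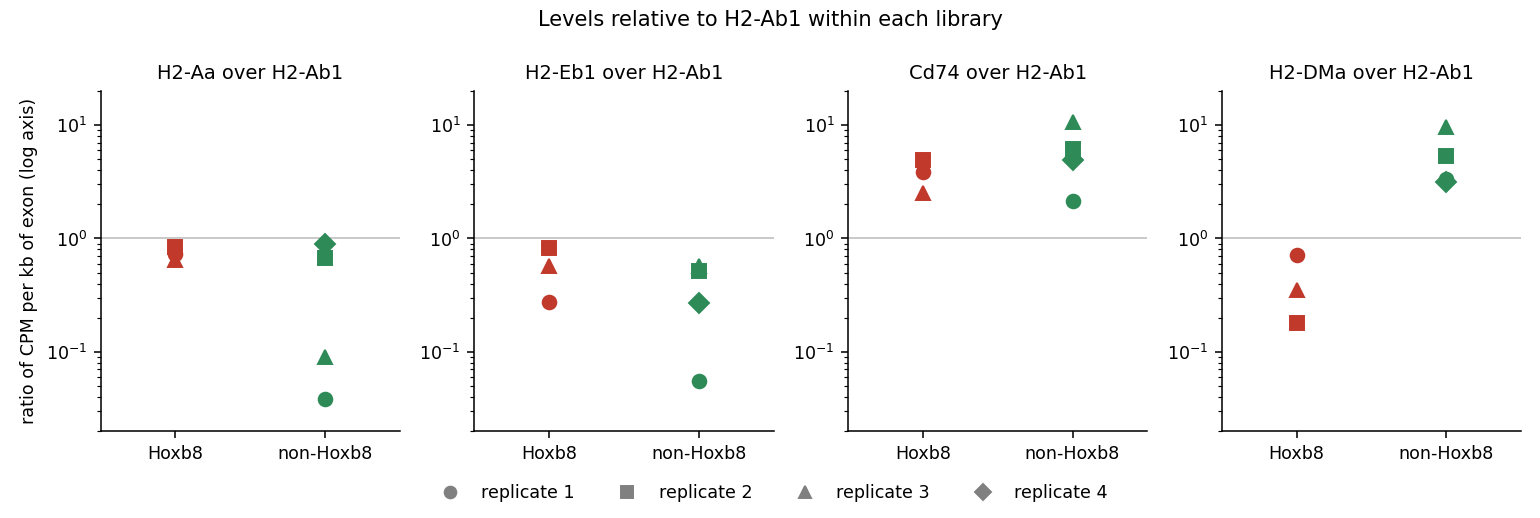
Ratio of exon-length-scaled CPM of H2-Aa, H2-Eb1, Cd74 and H2-DMa to H2-Ab1 in each library (log axis; Hoxb8 red and left, non-Hoxb8 green and right; symbols give the replicate). H2-Aa over H2-Ab1 is between 0.647 and 0.833 in Hoxb8 libraries and as low as 0.0381 in non-Hoxb8 libraries, and H2-DMa over H2-Ab1 does not overlap between groups.

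Cd74, H2-Aa, H2-Ab1 and H2-Eb1, the 4 chain genes, together took 0.0309%, 0.234% and 0.0419% of all counts in Hoxb8 replicates 1, 2 and 3, against 0.00236%, 0.00992%, 0.00436% and 0.00976% in non-Hoxb8 replicates 1 to 4. Of the counts of all 10 members, these 4 made up 60.3 to 91.5% in Hoxb8 and 11.8 to 38.3% in non-Hoxb8 libraries. The H2-DM and H2-O genes together stood at 147 to 221 CPM in Hoxb8 and 160.2 to 209 CPM in non-Hoxb8 libraries.

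No gene of the machinery around class II was called. Of 38 tested genes of the pathway lists, 0 passed edgeR without pairs, with 0 at an unadjusted p below 0.05, and DESeq2, limma-voom and edgeR with pairs also called 0. Of all tested genes, edgeR called 0.0337% higher without pairs and 0.362% with them, so 0 of 38 is near that share. With pairs, Cd83 and Cd274 were higher at unadjusted edgeR p-values of 0.01 and 0.023 (adjusted 0.63 and 0.81). Of the 10 promoter factors (median log2 fold change 0.00), Rfx5, which holds the X box complex together, was at 64.8 ± 23.6 CPM in Hoxb8 and 71.9 ± 17.4 CPM in non-Hoxb8 libraries (SD, n = 3 and n = 4). Its partners Rfxap and Rfxank had log2 fold changes of 0.79 ± 0.44 and 0.18 ± 0.55 (SE). Of the 9 genes of interferon-gamma signalling, the cytokine path that induces Ciita in macrophages (median 0.08), Ifngr1, Ifngr2 and Jak1 had log2 fold changes of 0.08, 0.09 and -0.17.

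Of the 11 genes of endosomal processing (median 0.04), Ctss, the protease that trims Cd74, stood at 4787 ± 381 CPM in Hoxb8 and 4188 ± 944 CPM in non-Hoxb8 libraries (SD, n = 3 and n = 4; log2 fold change 0.19 ± 0.16, SE). Ctsl and Ctsb, other endosomal proteases, had log2 fold changes of -0.13 and 0.14. Of the 8 tested genes of costimulation (median 0.23), Cd86, a ligand that T cells need beside the peptide, stood at 366 ± 29.4 CPM in Hoxb8 and 386 ± 42.3 CPM in non-Hoxb8 libraries (SD, n = 3 and n = 4), and Cd80 had a log2 fold change of 0.31 ± 0.32 (SE). Cd40, a receptor for T cell help, had the largest log2 fold change of the 38 at 2.21 ± 1.25 (SE), with overlapping groups. None of the 5 other class II loci looked for, H2-Ea among them, was analysed here.

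Markers of other cell types were read in the same libraries. The border macrophage list summed to 738, 1519 and 346 CPM in Hoxb8 replicates 1, 2 and 3, against 161, 215, 89.2 and 374 CPM in non-Hoxb8 replicates 1 to 4. All 10 of its genes had a log2 fold change above 0 (median 2.20), with 0 called by edgeR without pairs, 8 higher before adjustment at 0.05, 1 called by DESeq2 (Cbr2) and 7 called with pairs (Mrc1, Cd163, Lyve1, Cbr2, F13a1, Clec10a and Dab2). Of all tested genes, edgeR called 0.0337% higher without pairs and 0.362% with them, and 1.95% were higher before adjustment. DESeq2 called 0.159% of its genes higher. The defining markers Mrc1, Cd163 and Lyve1 were above 0 in all 7 libraries. The list and the 4 chain genes were both highest in Hoxb8 replicate 2. Among non-Hoxb8 libraries, replicates 2 and 4 lay above replicates 1 and 3 for both. In each group, replicate 1 had more of the list than replicate 3 and less of the chain genes.

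The monocyte list summed to 340, 684 and 309 CPM in Hoxb8 replicates 1, 2 and 3, against 139, 207, 129.9 and 150.4 CPM in non-Hoxb8 replicates 1 to 4, without overlap. Lyz2 made up most of each sum, at 209.9, 468.7 and 184.7 CPM in Hoxb8 replicates 1, 2 and 3. In non-Hoxb8 replicates 1 to 4 Lyz2 was at 100.1, 185.1, 99.7 and 116.8 CPM, so its own groups overlapped. Of the 9 tested genes of the list, 8 were above 0 (median 2.73), and edgeR called 1 without pairs (Itga4) and 4 with them (Itga4, Itgal, Spn and Lyz2). Of all tested genes, edgeR called 0.0337% higher without pairs and 0.362% with them. DESeq2 without pairs called 5 higher (Ccr2, Itga4, Treml4, Spn and Lyz2), beside 0.159% of all its genes. Ccr2, a chemokine receptor of classical monocytes, stood at 34.9 to 53.2 CPM in Hoxb8 and 12.5 to 20.4 CPM in non-Hoxb8 libraries, without overlap. In the higher direction, 2.48% of all tested genes had no overlap. Ly6c2, another gene of classical monocytes, had 0 counts in the Hoxb8 libraries, against 26 counts in non-Hoxb8 replicate 1. Spn and Treml4 of non-classical monocytes had 174 and 97 counts over the Hoxb8 libraries and 0 over the non-Hoxb8 libraries. The dendritic cell list summed to 77.5, 161 and 73.5 CPM in Hoxb8 replicates 1, 2 and 3, against 99.7, 88.3, 77.3 and 70.4 CPM in non-Hoxb8 replicates 1 to 4. Its 8 tested genes had a median log2 fold change of 0.27, with Cd209a the only one called by edgeR and Flt3 and Zbtb46 at 0.42 and 0.39. DESeq2 called 0 of the dendritic cell and B cell lists, but it gave Cd209a no adjusted p. Of the T cell list, 5 of 10 markers had a row (Cd4, Cd8a, Lck, Cd5 and Cd28). They summed to 3.91 to 47.7 CPM in Hoxb8 and 2.41 to 4.94 CPM in non-Hoxb8 libraries, highest in Hoxb8 replicate 2. In that library Cd4 was at 28.1 CPM and Cd28 at 15.0 CPM, and Lck had 0 counts. The microglia list summed to 38037 to 42827 CPM in Hoxb8 and 33056 to 43338 CPM in non-Hoxb8 libraries. The part of these other cells in the class II difference was not tested.

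**Figure D4:**
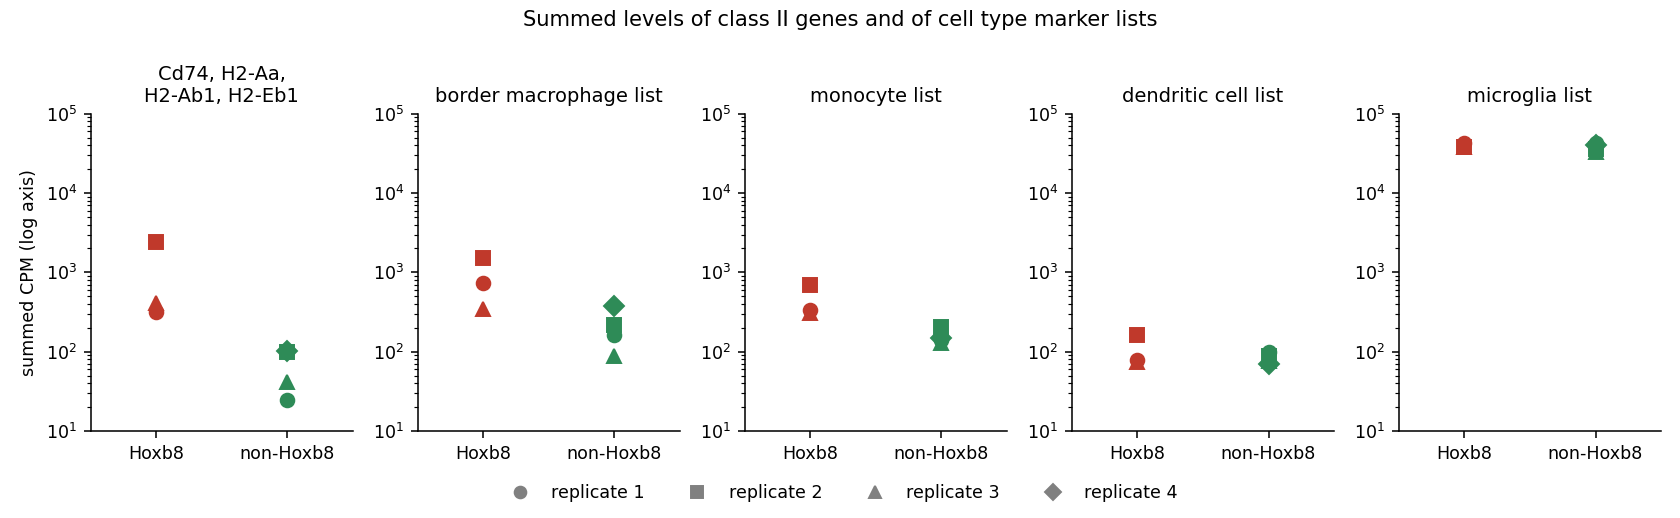
Summed CPM in each library (log axis; Hoxb8 red and left, non-Hoxb8 green and right; symbols give the replicate) of the 4 chain genes and of the border macrophage, monocyte, dendritic cell and microglia marker lists. The chain genes and the monocyte list do not overlap between groups, the border macrophage and dendritic cell lists do, and the microglia list is at 33056 to 43338 CPM throughout. Most of the monocyte sum is Lyz2 in every library.

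Likeness to H2-Ab1 was measured over the 7 libraries as the root-mean-square difference between log2 CPM profiles, each centred on its own mean. Of the members, Cd74 was nearest at 0.71, 4th of all tested genes, followed by H2-Eb1 at 0.99 (24th) and H2-Aa at 1.47 (133rd). Ciita was at 1.88, and the H2-DM and H2-O genes that were tested were between 1.91 and 2.19. Outside the members the 10 nearest were Cybb (0.47), Itga4 (0.61), Pla2g2d (0.68), Myof (0.72), Cd300ld (0.79), Cd93 (0.84), F13a1 (0.85), Ahnak (0.85), Mndal (0.87) and Emilin2 (0.87). Cybb, a membrane subunit of the superoxide-making phagocyte oxidase, was at 52.0, 186 and 61.3 CPM in Hoxb8 replicates 1, 2 and 3, against 5.22, 16.3, 2.08 and 6.53 CPM in non-Hoxb8 replicates 1 to 4. All 10 had their highest level in Hoxb8 replicate 2, as H2-Ab1 did, but they were picked for likeness to it over these same libraries. These profiles share their libraries, and the difference between groups dominates them.

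**Figure D5:**
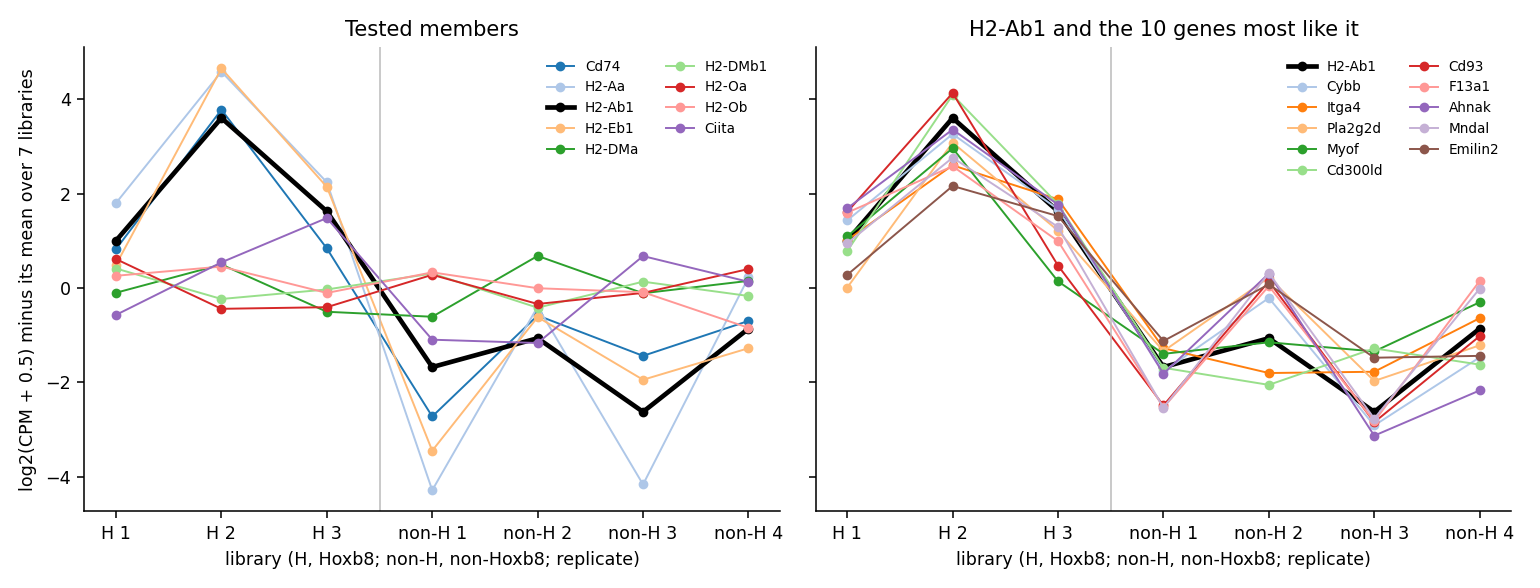
Log2(CPM + 0.5) of each gene minus its mean over the 7 libraries, for the 9 tested members (left) and for H2-Ab1 with the 10 genes most like it (right). Libraries run from Hoxb8 replicates 1 to 3 to non-Hoxb8 replicates 1 to 4, and H2-Ab1 is the thick black line. Cd74, H2-Aa and H2-Eb1 are higher in the Hoxb8 libraries, as H2-Ab1 is, but H2-Aa falls further than H2-Ab1 in non-Hoxb8 replicates 1 and 3. H2-DMa, H2-DMb1, H2-Oa and H2-Ob stay within about 1 of 0.

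In the GENCODE M21 annotation of GRCm38, 8 members lie together on chromosome 17, from H2-Oa at 34092340 to 34095234 to H2-Eb1 at 34305867 to 34316674, with H2-Ab1 at 34257689 to 34269419 and H2-Aa at 34282744 to 34287823. Cd74 lies on chromosome 18 at 60803848 to 60812652 and Ciita on chromosome 16 at 10480059 to 10528418. In order of position, H2-Oa, H2-DMa, H2-DMb2, H2-DMb1 and H2-Ob, whose groups overlapped, come first, and H2-Ab1, H2-Aa and H2-Eb1, whose groups did not, come after them. H2-Ob, at 34238903 to 34254414, is the last of those that overlapped and lies next to H2-Ab1. H2-Eb1 overlaps the antisense gene Gm20513, H2-Oa overlaps BC051537 and H2-DMa overlaps Brd2, each on the opposite strand. H2-DMb1 and H2-DMb2 are close paralogs, and 3 pairs of class I genes (H2-Q6 and H2-Q8, H2-Q7 and H2-Q9, H2-T22 and H2-T9) had identical counts in all 7 libraries, so that members of these pairs cannot be told apart.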

How the data were processed

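The 7 RNA libraries gave unstranded single-end reads of 50 bases. Reads were mapped by the authors with STAR 2.4.1c to GRCm38 with GENCODE M5, per the labels' protocols, and featureCounts, Subread and DESeq2 appear, without settings, in the submitters' processing notes. The authors deposited whole-number counts for 14616 rows named by symbol. How rows were selected was not given in the sources used here. From these, 22 rows whose names a spreadsheet had turned into dates were left out (a median of 0.133% of counts per library).

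The test was edgeR 4.0.16 under R 4.3.3 (TMM, filterByExpr, robust glmQLFit, glmQLFTest, Benjamini-Hochberg at 0.05 over 11874 genes), after a check on simulated data. Each SE is the size of the log2 fold change over √F. DESeq2 1.42.0 and limma-voom (limma 3.58.1), other normalisations, no filter, pairs, and leaving out libraries were alternatives. Adjacent library numbers (6 and 5, 14 and 13, 22 and 21) were accepted as pairs because, after subtracting group means, their log2 levels correlated at 0.18, 0.28 and 0.19, each over 0.1 and the highest for its Hoxb8 library. Replicate numbers follow accession order. The labels name no molecular identifiers, so counts are of reads and not of molecules.

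All members and the first 3 tested genes of each pathway list are named, with marker genes past the edgeR test and the 10 genes most like H2-Ab1. Ccr2, Cbr2, Il1b and the other examples were named after their values were seen. The members and lists were chosen with earlier results of these data known.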

Additional observations from a re-analysis of the deposited data

How the results depend on the processing

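Of the 4 chain genes, none changed direction under any alternative. With pairs, log2 fold changes were 3.44, 5.84, 3.95 and 4.97 for Cd74, H2-Aa, H2-Ab1 and H2-Eb1 in edgeR, 3.43, 6.30, 3.96 and 4.98 in DESeq2 and 3.80, 5.36, 4.2 and 5.14 in limma-voom, and all 4 were called each time. DESeq2 without pairs gave 4.0 for H2-Ab1 and 5.09 for H2-Eb1 and called 2 members. H2-DMa turned to 0.05 and H2-Oa to 0.18 without libraries 21, 22 and 25, and H2-Oa to 0.03 in limma-voom with pairs, with no call. Leaving out 1 library gave 1.99 to 4.12 for Cd74, 3.08 to 5.30 for H2-Aa, 2.81 to 4.39 for H2-Ab1, 3.22 to 5.68 for H2-Eb1, -0.39 to 0.18 for H2-DMa, -0.12 to 0.22 for H2-DMb1, -0.53 to 0.10 for H2-Oa and 0.13 to 0.49 for H2-Ob, with 0 or 1 member and 0 to 6 genes of all called higher. Leaving out 1 pair in the fit with pairs gave 2.91, 3.36 and 4.01 for Cd74, 5.52, 5.55 and 7.06 for H2-Aa, 3.50, 3.76 and 4.57 for H2-Ab1, 4.59, 4.98 and 5.28 for H2-Eb1, -0.29, 0.05 and 0.16 for H2-DMa, -0.04 to 0.14 for H2-DMb1, -0.21, 0.01 and 0.11 for H2-Oa and -0.06 to 0.22 for H2-Ob, with 4 members, 31, 50 and 63 genes higher and 3, 5 and 7 lower. Over all genes edgeR called 4 higher and 0 lower, with pairs 43 higher, DESeq2 21 and 5, limma-voom 0, DESeq2 with pairs 48 and 1, limma-voom with pairs 47 and 1, without libraries 13 and 14 2 higher, and without libraries 21, 22 and 25 0. The causes were not tested. The alternatives with DESeq2 or limma-voom and pairs, and without replicate 1 or 3, were chosen after the data were seen. Other normalisations changed no direction among the members.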
